A study of Mus musculus with 2 samples.

Results

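The genes described here are the ligands Dll1, Dll4, Jag1 and Jag2, the receptors Notch1, Notch2 and Notch4, the DNA-binding factor Rbpj and the target genes Hes1 and Dtx1 of the Notch pathway, read on a pair of mouse arrays. Every probe set whose single gene symbol was one of these was taken, which gave 21 probe sets for all 10 genes, out of 18193 named genes in the series. Splenic antigen-presenting cells (APCs) came from female wild-type C57BL/6 mice aged 10 weeks. They were kept overnight with CD4+ T cells that bear the P25 T cell receptor, either with the P25 peptide, a mycobacterial peptide that this receptor recognises on MHC class II, or with medium alone, and were then enriched. Both conditions therefore held the same T cells and differed in the peptide. RNA of 3 independent experiments was mixed for each condition and hybridised to 1 array, so no spread between experiments can be had, no p-value is given, and every difference below is a description of this pair of arrays.

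Notch signalling passes between touching cells. A Delta-like or Jagged ligand on one cell binds a Notch receptor on its neighbour, the receptor is cut by ADAM10 and then by γ-secretase, and its freed intracellular domain enters the nucleus, where it joins RBPJ and Mastermind-like coactivators and switches on genes such as Hes1 and Dtx1. In the spleen, Notch2 is needed for marginal zone B cells, which Dll1 on stromal cells supports, and for a subset of conventional dendritic cells, while ligands on APCs can be read by Notch receptors on T cells.

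Values are MAS5 signals, the manufacturer's summary of the probes of a probe set on a linear scale, and ratios are P25 over medium after log2. For ratios, signals under a floor of 10.3, the 40th percentile over both arrays, were set to that floor. Summed signals of gene lists are sums of the deposited signals, without the floor. Where 1 of the arrays lay at the floor, the ratio is a bound and is written as "at least". Of the 21 probe sets, 14 were above the floor on both arrays, 2 with P25 alone, 2 with medium alone and 3 on neither array, so 18 were measured. The probe set with the highest mean log2 signal stood for its gene. On that basis all 10 genes were measured, and for 9 the signal exceeded the floor with P25 and with medium. As a gauge of technical disagreement, the log2 ratios of the brightest pair of probe sets were compared in 5293 genes, and the SD of their differences was 0.58.

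As a group the Notch genes did not lean one way. Their median log2 ratio was 0.01, against 0.02 for 12990 measured genes, with 5 above and 5 below 0. None of the 10 was at least 2-fold higher with P25, where 9.4% of all measured genes were, and 2 were at least 2-fold lower, where 7.27% were. Over probe sets, 1 of 18 was at least 2-fold higher (background 9.15%) and 3 were at least 2-fold lower (background 7.6%). The members differed among themselves, with Notch1 higher, Notch2 somewhat lower and Dtx1 clearly lower with P25. In such bulk samples, fewer cells of a type and less RNA per cell cannot be told apart.

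**Figure D1:**
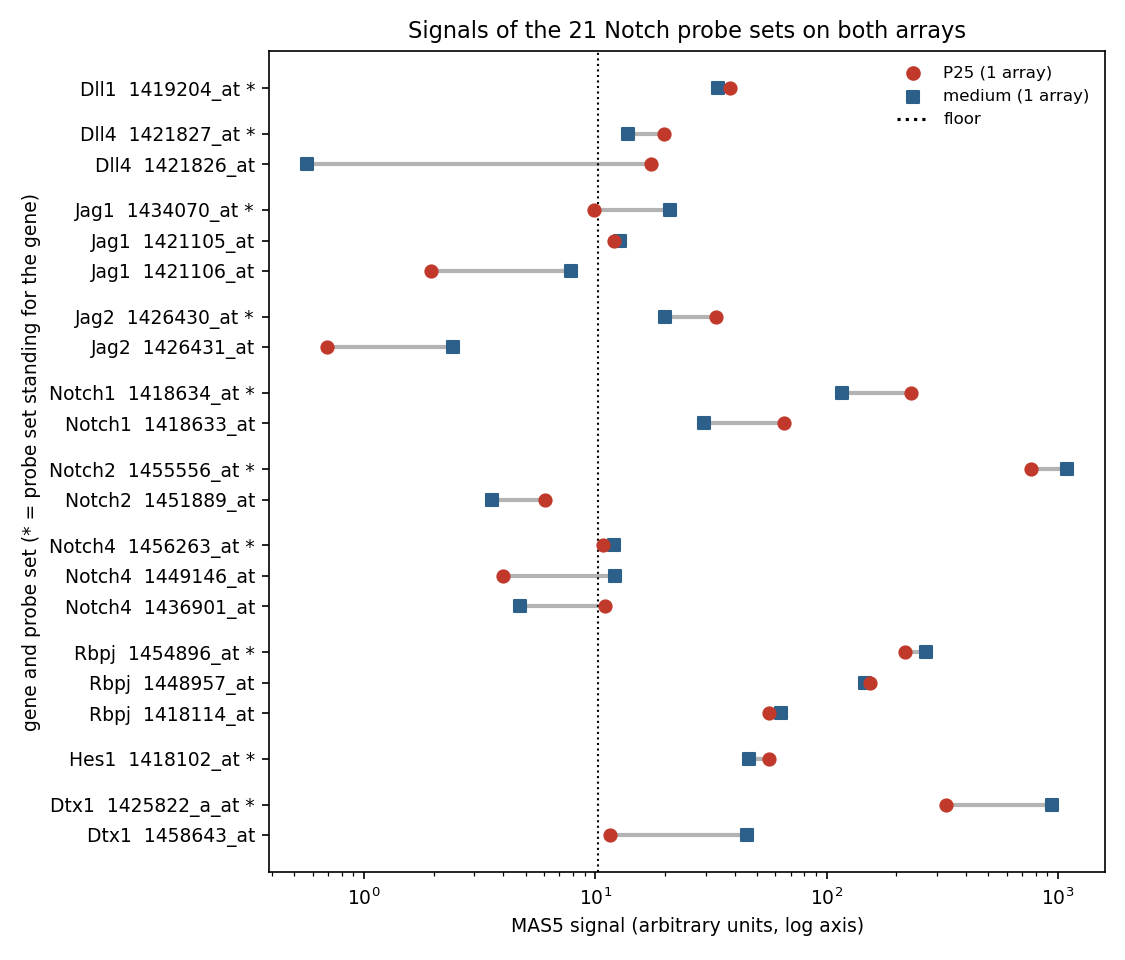
MAS5 signal (log axis) of each of the 21 probe sets on the P25 array (circles) and the medium array (squares), grouped by gene, with a star at the probe set that stands for its gene and a dotted line at the floor of 10.3. Both Notch1 probe sets lie higher with P25 and both Dtx1 probe sets lie lower, while most probe sets of Dll4, Jag1, Jag2 and Notch4 lie near or under the floor.

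The receptors went in different directions. Notch1, a receptor needed for T cell development and present on many blood cells, had a signal of 232 with P25 and 117 with medium on its brighter probe set, 1.98-fold higher and just short of 2-fold. Its other probe set read 65.2 against 29.6, 2.20-fold higher. Both probe sets were thus higher with P25, by log2 ratios of 0.98 and 1.14 that differed by 0.16, less than the SD of 0.58 between probe sets of a gene. The platform annotation gives both the same RefSeq transcript, and they are not independent measurements of the cells. Of all measured genes 9.74% had a higher ratio than the brighter Notch1 probe set. Notch1 passed 2-fold in 5 of 10 alternative processings, with log2 ratios from 0.90 to 1.14 over all 10, among them 1.11 with both arrays brought to one median and 1.14 with both brought to one spike-in level. T cell markers on the same arrays went both ways. Cd3e, Cd3d and Cd4 were under the floor on both arrays. Of 7 measured T cell markers 4 had log2 ratios above 0 (Cd3g, Trat1, Cd8a and Cd247), with none called 2-fold higher (background 9.4%). Trat1 and Cd247 were at the floor with medium, so their ratios are bounds. The other measured probe sets of Cd8a gave -0.44, -0.30 and -0.06, also as bounds. The other 3 markers were below 0 (background 48.6%), and of these Il7r and Cd28 were at least 2-fold lower (background 7.27%). The median over the 7 was 0.26. Cd3g was highest at 21.6 against 11.1. The summed T cell marker signal was 184 with P25 and 228 with medium, and without Il7r and Cd28 it was 131 against 87.1, so its direction rests on those genes. Both sums include signals under the floor, such as Cd247 (0.73) and Trat1 (2.98) with medium, so the size of their differences is uncertain. The part of the T cell markers in the Notch1 result was not tested.

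Notch2 had a signal of 762 with P25 and 1091 with medium, 1.43-fold lower and within 2-fold. Its log2 ratio of -0.52 was below 0 in all 10 alternatives, from -0.70 to -0.37. Its other probe set read 6.08 against 3.58, under the floor on both arrays, so Notch2 rests on 1 probe set. The log2 ratios of Notch1 and Notch2 lay 1.50 apart, 2.58 times the SD between probe sets of a gene. Taken alone, the ratio of Notch2 was -0.89 of that SD. The SD holds no spread between experiments or hybridisations, so it does not gauge a difference between the conditions. Notch4, mostly known from endothelial cells, was at the limit of measurement, with 10.8 against 12.1 on the probe set that stands for it, and its other probe sets crossed the floor in opposite directions (10.96 against 4.73 and 3.97 against 12.2). No direction can be read for Notch4.

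The 250 bases before the RefSeq starts of Notch1 and Notch2 (GRCm38.p6) are shown because the log2 ratios of these receptors had opposite signs. A link between the sequences and the ratios was not tested. CpG pairs are in capitals. The Notch1 window is chr2:26503823-26504072 on the minus strand and the Notch2 window is chr3:98013288-98013537 on the plus strand, both 5′ to 3′ along the gene.
Notch1: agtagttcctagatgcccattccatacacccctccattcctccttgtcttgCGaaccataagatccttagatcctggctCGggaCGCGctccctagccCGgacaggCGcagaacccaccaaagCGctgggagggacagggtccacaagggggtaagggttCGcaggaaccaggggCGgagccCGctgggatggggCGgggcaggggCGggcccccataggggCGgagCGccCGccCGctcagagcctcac
Notch2: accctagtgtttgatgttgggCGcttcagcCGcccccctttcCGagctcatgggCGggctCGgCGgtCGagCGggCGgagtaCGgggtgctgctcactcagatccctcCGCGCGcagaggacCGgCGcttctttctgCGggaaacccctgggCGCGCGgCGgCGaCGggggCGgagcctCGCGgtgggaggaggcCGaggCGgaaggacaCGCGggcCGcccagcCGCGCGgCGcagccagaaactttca
The Notch1 window held 16 CpG pairs and 66.0% G or C, and the Notch2 window 34 CpG pairs and 72.0%. Over 32841 windows of the same length the medians were 6 CpG pairs and 52.4%, so both windows are CpG-rich and the Notch2 window more so. Of all windows 74.6% had fewer CpG pairs than that of Notch1 and 96.5% fewer than that of Notch2. CpG richness was not particular to these receptors. The windows of the other Notch genes held from 13 (Dll1) to 54 (Jag2) CpG pairs, apart from 4 for Notch4.

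**Figure D2:**
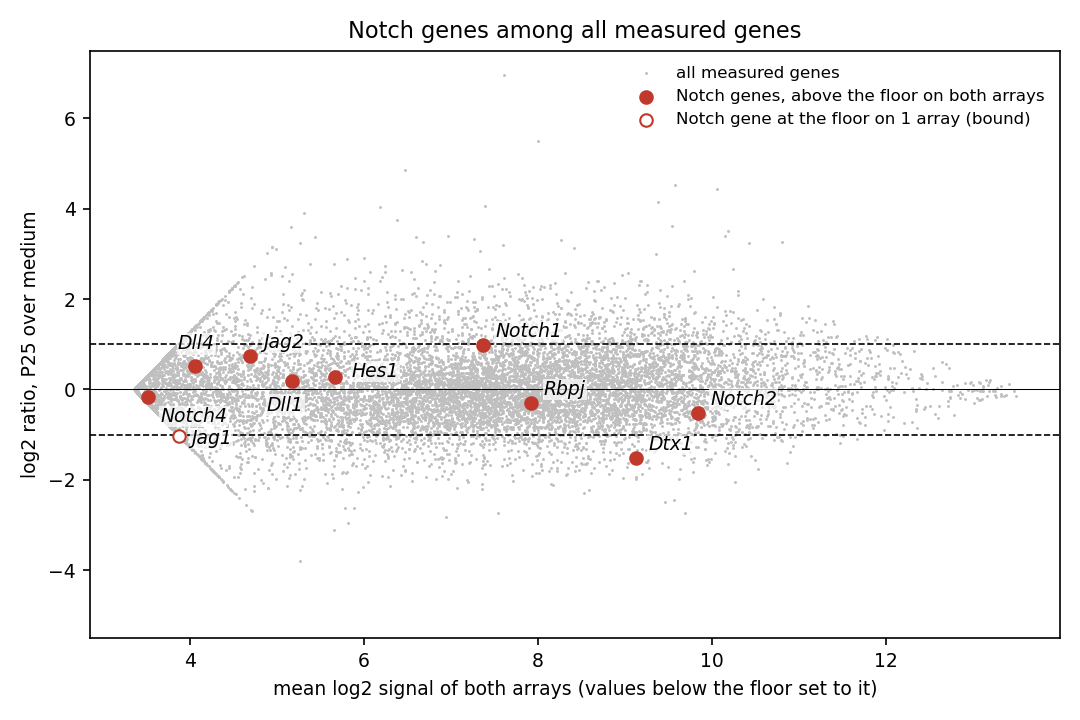
Log2 ratio of P25 over medium against the mean log2 signal of both arrays for all 12990 measured genes (grey) and the 10 Notch genes (red, open where 1 array was at the floor), with dashed lines at 2-fold. Dtx1 lies below the lower line and Notch1 just under the upper one, and Notch2 and Dtx1 sit among bright genes while Jag1, Dll4 and Notch4 sit at the dim edge.

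Dtx1 was the member with the largest difference. It encodes Deltex1, an E3 ubiquitin ligase that acts on Notch receptors and is itself a Notch target in lymphocytes, and it is known as a marker of marginal zone B cells. Its brighter probe set read 329 with P25 and 946 with medium, 2.87-fold lower. The second read 11.6 against 45.3, 3.90-fold lower. Both probe sets were therefore lower with P25, at log2 ratios of -1.52 and -1.96, and of all measured genes 2.03% had a lower ratio than the first. The call held in all 10 alternatives, with log2 ratios from -1.74 to -1.37, though the changed floors left Dtx1 at -1.52 and could not alter it. Beside it, 5 of 5 measured marginal zone B cell markers had log2 ratios below 0 (background 48.6%) but none was 2-fold lower (background 7.27%). They ran from -0.70 for S1pr3, a sphingosine-1-phosphate receptor, to -0.23 for Cd9, with Cr2, Cd1d1 and Mzb1 between them. Their summed signal was 3747 with P25 and 5439 with medium, mostly from Mzb1 (2364 against 3579), a log2 ratio of -0.54 against -1.52 for Dtx1. Cr2 is also among the further Notch targets listed below. The summed signals gave a log2 ratio of -0.52 for the B cell list and 0.00 for 2 follicular B cell markers. The part of these markers in the Dtx1 result was not tested.

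Hes1, a transcriptional repressor and the most widely used Notch target, had a signal of 56.1 with P25 and 46.2 with medium, 1.22-fold higher. Its log2 ratio was 0.28, from 0.20 to 0.43 over the alternatives, and so within 2-fold throughout. The target genes Hes1 and Dtx1 thus did not move together on these arrays.

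Rbpj, the DNA-binding factor on which canonical Notch signals converge, was within 2-fold on each of its 3 probe sets. The brightest read 218 with P25 and 269 with medium. The others read 154 against 146 and 56.2 against 63.7. Their log2 ratios were -0.30, 0.08 and -0.18, so the probe sets did not share one sign. The log2 ratio of Notch1 lay 1.29 above that of Rbpj.

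The core letters of the RBPJ binding motif, TGGGAA, were sought on both strands of the 250-base windows of the Notch genes. RefSeq's table gave 11 windows for 9 of the 10 genes, and Hes1 is not shown. Only the windows of Rbpj itself held a match, 2 overlapping windows of 11, where 21.6% of all 32841 windows held one. The longer GTGGGAA, which contains the shorter motif, was in none of the 11 and in 5.41% of all windows. The matched stretches of Rbpj on the plus strand, at chr5:53590185-53590214 and chr5:53590269-53590298, are given with the match in capitals, the second match being on the opposite strand.
Rbpj first match: aatgaaaaaggcTGGGAAcccgcggcgagc
Rbpj second match: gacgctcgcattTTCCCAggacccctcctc
A match is a description of the letters, and their absence from a window of this size says nothing of binding elsewhere.

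All 4 ligands gave low signals, and only Jag1 reached 2-fold, as a bound. Dll1, a Delta-like ligand, read 38.4 with P25 and 33.9 with medium, 1.13-fold higher. Dll4, a Delta-like ligand that activated dendritic cells can carry, read 19.9 against 13.9, 1.43-fold higher. Both Dll4 probe sets were on the higher side, the second with 17.3 against 0.57, which after the floor is at least 1.68-fold higher.

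The Jagged ligands went opposite ways. Jag2 read 33.4 with P25 and 20.1 with medium, 1.66-fold higher, and its other probe set was under the floor on both arrays (0.69 against 2.42). Jag1 read 9.86 against 20.9, at least 2.03-fold lower. Its next probe set read 12.03 against 12.8, a log2 ratio of -0.09, and the third was under the floor on both arrays (1.94 against 7.88). The Jag1 call therefore rests on 1 dim probe set, and it held in 3 of the 8 alternatives in which Jag1 was measured, coming to -0.56 with the median over its probe sets and to -0.94 with spike-in scaling.

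When the floor was raised to the 60th percentile, a signal of 38.6, 5 of the 10 genes were still measured, and of these Dtx1 was called. Dll1, Dll4, Jag1, Jag2 and Notch4 were then not measured. The values of Notch1, Notch2, Rbpj, Hes1 and Dtx1 are thus better measured here than those of the ligands.

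**Figure D3:**
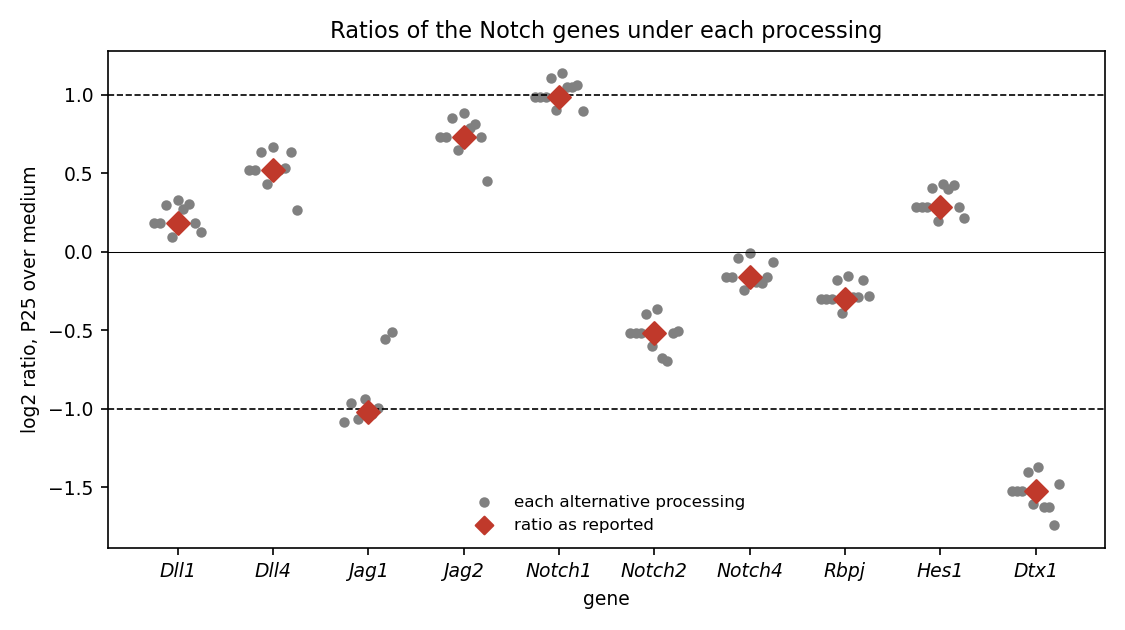
Log2 ratio of P25 over medium of each Notch gene as reported (diamond) and under each alternative processing that measured it (grey dots), with dashed lines at 2-fold. Dtx1 stays below the lower line under all 10, Notch1 straddles the upper line between 0.90 and 1.14, and Jag1 straddles the lower one.

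Markers of the cells that carry Notch ligands were mostly dim as well. Of 7 endothelial markers Tek and Tie1 were under the floor on both arrays, and of 6 stromal markers Col1a1, Col3a1, Dcn and Pdgfrb were. The summed endothelial signal was 253 with P25 and 402 with medium, most of it from Pecam1 (181 against 369), which leukocytes also express and which was 2.03-fold lower. The other 4 measured endothelial markers were near the floor, with ratios above 0. The summed stromal signal was 44.1 against 26.7. This sum includes signals under the floor, and the measured Col1a2 (16.5 against 14.3) and Pdgfra (12.1 against 8.55) were near it. No direction can be read for the stromal list.

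Around these members, 60 other genes of the pathway were listed by role, of which 55 had a named probe set and 50 were measured. Of the 50, 5 were at least 2-fold higher and 5 at least 2-fold lower (10.0% each, beside backgrounds of 9.4% and 7.27%), with a median log2 ratio of -0.20 against 0.02 for all measured genes. Of the 50, 31 (62.0%) were below 0, as were 48.6% of all measured genes, and the log2 ratio of the list's summed signals was 0.01. The higher genes were Myc, Il2ra, Dtx3l, Nedd4 and Kat2a, and the lower ones Neurl3, Ep300, Numbl, Ctbp2 and Aph1b. At these backgrounds, calls in the small role lists below are no result about a role.

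Among genes listed as ubiquitin ligases of the ligands in the sending cell, 1 of 5 measured was at least 2-fold lower (background 7.27%). Whether each acts on Notch ligands in these cells was not tested. Neurl3, of the Neuralized family of E3 ubiquitin ligases, read 45.8 with P25 and 131 with medium, 2.85-fold lower, on its only probe set. Neurl1a was highest at 23.3 against 14.4, 1.62-fold higher. Mib1, the ligase that most Notch ligands need, was within 2-fold at 133 against 117. Of the further ligands and the receptor Notch3, 3 of 4 were measured and none passed 2-fold. Notch3 had the lowest log2 ratio, -0.70 (11.8 against 19.2), and the ligand-like Dlk2 the highest, at least 1.85-fold, but 2 of 8 alternatives put Dlk2 below 0, so it has no settled direction.

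Of 5 genes that put sugars on the receptor none passed 2-fold, 2 were above and 3 below 0, and the median log2 ratio was -0.03. The fringe enzymes Lfng (104 against 174) and Mfng (229 against 374) were 1.68-fold and 1.63-fold lower, and the third fringe, Rfng, had a log2 ratio of -0.03. Pofut1, which adds the O-fucose that fringe extends, was highest at 217 against 171, 1.27-fold higher. Of 8 measured genes of receptor cleavage 1 was at least 2-fold lower (background 7.27%) and 6 were below 0 (background 48.6%). Their median log2 ratio was -0.52, while the log2 ratio of their summed signals was -0.05. The γ-secretase subunit gene Aph1b read 30.1 against 64.0, 2.12-fold lower, but its other probe set gave a log2 ratio of -0.11, and the call held in 3 of 10 alternatives. The γ-secretase genes Psen2 and Ncstn had log2 ratios of -0.83 and -0.80, though Psen2 came to -0.24 by the median over its probe sets, while the subunit gene Psenen was highest at 0.23. The proteases Adam10 and Adam17 were within 2-fold, at 0.14 and -0.08.

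Of 7 measured nuclear coactivators 1 passed 2-fold in each direction (backgrounds 9.4% higher and 7.27% lower), and the median log2 ratio was -0.45. Ep300, the acetyltransferase p300, read 452 with P25 and 1088 with medium, 2.40-fold lower in a call that held in all 10 alternatives. The changed floors and the median over probe sets left the ratio of its 1 probe set unchanged, so they could not alter the call. Crebbp, a relative of Ep300, had a log2 ratio of -0.45, and of -0.64 and -1.10 on its other probe sets above the floor. Maml1, the Mastermind coactivator that binds RBPJ with the Notch intracellular domain, had a log2 ratio of -0.84. Kat2a, another acetyltransferase, read 422 against 199, 2.12-fold higher, and passed 2-fold in 8 of 10 alternatives. Of 6 measured corepressors 1 was at least 2-fold lower (background 7.27%). Ctbp2 read 33.5 against 72.6, 2.16-fold lower, which held in 4 of 10 alternatives, and Hdac1 was highest at 1.42-fold higher.

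Among 6 regulators of receptor turnover 1 was at least 2-fold higher (background 9.4%) and 1 lower (background 7.27%). Nedd4, an E3 ubiquitin ligase, read 272 against 120, 2.27-fold higher, and passed in all 10 alternatives. Its other probe sets gave log2 ratios of 1.39 and 0.44. Numbl, related to the Notch inhibitor Numb, was above the floor with medium alone (8.14 against 24.7), at least 2.40-fold lower, which held in 7 of the 8 alternatives that measured it. Nrarp, a feedback inhibitor that is itself a Notch target, read 44.4 against 54.1, a log2 ratio of -0.28, and its second probe set gave -1.31.

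Among 4 other Deltex family genes 1 was at least 2-fold higher (background 9.4%). Dtx3l read 1020 with P25 and 409 with medium, 2.49-fold higher, and 826 against 289 on its other probe set. Dtx3l works with Parp9 and is known as an interferon-inducible gene. Dtx2 had the lowest log2 ratio of the other family members, -0.44, and Dtx3 and Dtx4 were within 2-fold at -0.15 and 0.49. Dtx1 and Dtx3l were thus the family members past 2-fold, in opposite directions.

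Of 10 further genes reported as Notch targets in some cell types 6 were measured, 2 of them at least 2-fold higher (background 9.4%). Myc, a driver of growth, read 820 against 172, 4.78-fold higher. Il2ra, the IL-2 receptor α chain, read 122 against 25.6, 4.76-fold higher, and 99.6 against 20.2 on its other probe set. Both have many regulators besides Notch. The classical Hes and Hey targets did not follow them. Hes5 read 29.4 against 33.6 and was within 2-fold, while its second probe set read 10.2 against 25.3, at least 2.46-fold lower, and the median over both gave a log2 ratio of -0.74. Hes7 had a log2 ratio of -0.59 as a bound, Heyl was near the floor (12.6 against 2.22), and Hey1 and Hey2 were under the floor on both arrays, as were Gata3 and Ptcra.

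**Figure D4:**
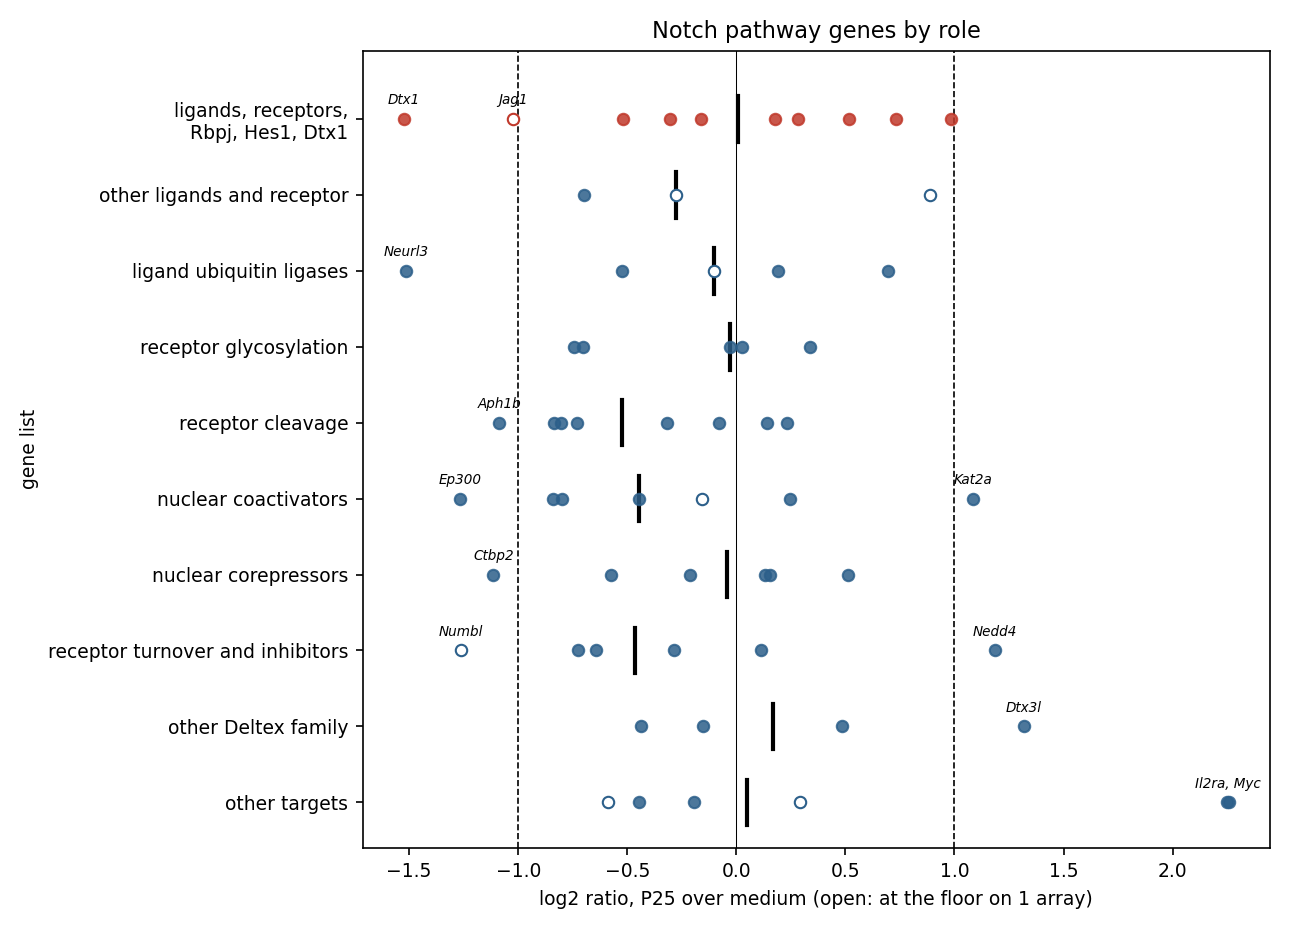
Log2 ratio of P25 over medium of each measured pathway gene, 1 row per role, with the 10 Notch genes in red on top, open symbols where 1 array was at the floor, a black bar at the median and dashed lines at 2-fold. Genes past 2-fold are named, with Myc and Il2ra farthest to the right and Dtx1 and Neurl3 farthest to the left.

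The labelled cells were checked against their markers. B cell genes had high signals on both arrays (Cd79a 3655 with P25 and 6119 with medium). Of 9 measured B cell markers 8 had log2 ratios below 0 (background 48.6%), with a median of -0.63 over the 9 markers. Of the 9 markers 1 was at least 2-fold lower (Blk, 2.57-fold, background 7.27%). Their summed signal was 24095 against 34614. Of 4 shared conventional dendritic cell markers 3 were below 0 (background 48.6%), with a median of -0.83 over the 4 markers. Dpp4 was 2.01-fold lower (background 7.27%), and Itgax and Flt3 had log2 ratios of -0.87 and -0.80. Zbtb46 was 5.72-fold higher (background 9.4%). Of 4 measured genes listed for Notch2-dependent dendritic cells, not all of them particular to that subset, 2 were at least 2-fold lower (background 7.27%). They were Sirpa (68.3 against 183) and Esam (6.31, under the floor, against 23.5). Klf4 had a log2 ratio of -0.83 and Irf4 of 0.27. The summed signals of the 4 were 1104 and 1137, mostly from Irf4, and 152 against 345 without it. These sums do not measure the number of Notch2-dependent cells. Among macrophage and monocyte markers 8 of 11 measured were at least 2-fold lower (background 7.27%), with summed signals of 579 against 1431. These marker differences stand beside the lower Notch2 and Dtx1 signals, and their part in them was not tested.

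**Figure D5:**
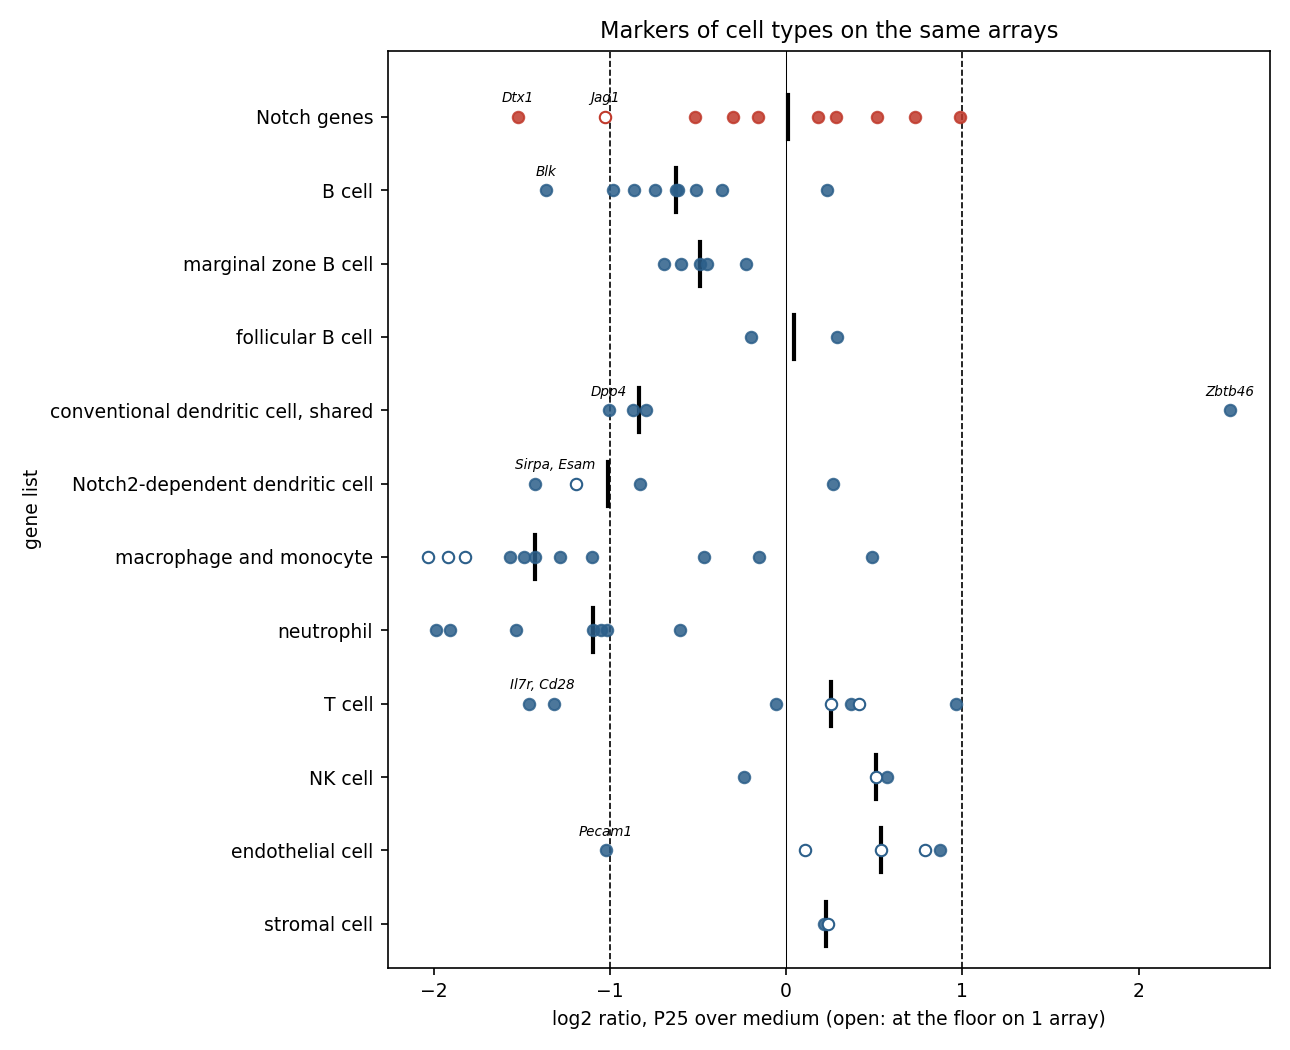
Log2 ratio of P25 over medium of measured cell type markers, 1 row per list, with the Notch genes in red on top, open symbols where 1 array was at the floor, a black bar at each median and dashed lines at 2-fold. The marginal zone B cell markers lie between -0.70 and -0.23, to the right of Dtx1 at -1.52, and most macrophage and neutrophil markers lie left of the lower line.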

How the data were processed

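The authors deposited MAS5 signal intensities on a linear scale, for which the submitters' processing notes name GCOS with no version. RNA was purified on RNeasy columns and 1 µg was labelled with biotin, per the labels' protocols. MAS5 scales each array to a target that is not given in the sources used here, nor are detection calls. Unequal scaling would move every ratio by one amount. Each array held 45101 probe sets, 64 of them controls. The medians of the others were 18.0 (P25) and 18.4 (medium), and 60.3% and 59.7% were above the floor. Precision is limited by the number of arrays, 1 per condition, and any difference between the hybridisations cannot be told apart from the treatment.

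Gene names came from the platform annotation, updated by Entrez number through RefSeq genes of GRCm38.p6. Of them 34945 had 1 symbol (204 not matched), 932 several and 9160 none, and those with 1 were used. Ratios were computed in Python 3.11.15 with pandas 2.3.3 and tested on simulated data in which only genes well above the floor were changed. That test says nothing about dim genes such as the ligands and Notch4. A gene was called at a ratio of at least 2 or at most 0.5. All members were named, with each pathway gene past 2-fold and the highest and lowest of each list, and some further genes were chosen after their values were seen. The members and lists were chosen with earlier results of these data known. Some listed genes are not analysed here. Marker lists not described gene by gene gave no calls for follicular B cells (0 of 2 measured), natural killer cells (0 of 3) and erythroid cells (0 of 1). The calls were 1 lower of 5 for cross-presenting dendritic cells and 2 higher and 2 lower of 6 for plasmacytoid dendritic cells. For neutrophils they were 6 lower of 7. Beside these calls the backgrounds were 9.4% higher and 7.27% lower, and 1 call in a list of 5 is no result about that list.

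The 10 alternatives were floors at the 20th and 60th percentile, genes above the floor on both arrays only, scaling to one median, one 2% trimmed mean or one spike-in level (18 probe sets), loess, quantile normalization, the median over probe sets, and log2(signal + 16). They are not independent checks. The changed floors left the ratios of genes well above them unchanged. Each scaling added one amount to every ratio with both arrays above the floor.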

Additional observations from a re-analysis of the deposited data

How the results depend on the processing

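Dtx1 was at least 2-fold lower under all 10 alternatives. The count of Notch genes at least 2-fold higher was 0 as reported and 1 (Notch1) with one median, one spike-in level, loess, quantile normalization and the median over probe sets. The count at least 2-fold lower was 2 as reported and 1 (Dtx1) with the 60th percentile floor, genes above the floor on both arrays, one median, one spike-in level, quantile normalization, the median over probe sets and log2(signal + 16). Scaling to one median or one spike-in level added 0.12 or 0.15 to log2 ratios with both arrays above the floor. This took Notch1 from 0.98 to 1.11 or 1.14, past 2-fold. Jag1, a bound at -1.02, came to -0.97 or -0.94. The median over probe sets put Notch1 at 1.06 and Jag1 at -0.56. The cause of the other changed calls was not tested, apart from the settings that measured fewer genes. Notch probe sets at least 2-fold higher numbered 1 as reported, 3 with the 20th percentile floor, 0 with the 60th and 2 with one median, one spike-in level, loess and quantile normalization. Those lower numbered 3 as reported, 5 with the 20th percentile floor and 1 with the 60th. The other pathway genes at least 2-fold lower numbered 5 as reported, 9 and 2 with the 20th and 60th percentile floors, 3 with one median, one spike-in level, quantile normalization and the median over probe sets, and 2 with log2(signal + 16). Over all genes, 1221 were higher and 944 lower as reported, 2493 and 1970 with the 20th percentile floor, 592 lower with the 60th and 584 lower with log2(signal + 16). The share of all calls that were higher was 56.4% as reported, 68.3% with one median, 71.4% with one spike-in level and 48.0% with one trimmed mean. Under these 3 scalings the median log2 ratio was 0.13, 0.16 and -0.06 over all genes (0.02 as reported) and 0.13, 0.16 and -0.08 over the Notch genes (0.01 as reported). No paired analysis was possible because each condition has 1 array. Low signal limits the ligands and Notch4.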
